A study of Mus musculus with 2 samples.

Results

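The genes described here are 10 transcription factor genes linked to the cells that wrap blood vessels: the T-box genes Tbx2, Tbx3, Tbx15 and Tbx18, the forkhead genes Foxc1, Foxc2, Foxd1, Foxf2 and Foxs1, and Ebf1. They were chosen by name, with earlier results of these data known, and all 10 had a row among the 32531 genes counted. The RNA came from cerebral cortex of adult Gdnf-EGFP/Rpl10a mice of the line ES2243, in which a ribosomal protein tagged with green fluorescent protein is made under the regulatory sequences of Gdnf, so that ribosomes of the cells using that driver can be pulled down with antibodies to the tag. The 2 libraries, IP1 and IP2, were both such pulldowns, carried the same transgene, had no treatment and made up a single group. Whether each is 1 animal or a pool is not stated in the labels, so their spread may be technical. No unpurified cortex RNA was analysed here, and values are therefore levels in the pulldown and not enrichments.

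Mural cells are the pericytes of capillaries and the smooth muscle cells of larger vessels. T-box factors bind DNA through the T-box domain and forkhead factors through a winged helix, while Ebf factors use a zinc-binding domain of their own and act as dimers. In brain vessels Foxf2 and Foxc1 are known as regulators of pericytes and of the blood-brain barrier, Tbx18 as a gene that marks the mural lineage, and Ebf1 as a factor of pericytes, of B cells and of fat cell precursors. Foxc1 and Foxd1 are also used by meningeal and other mesenchymal cells, and none of the 10 is restricted to pericytes.

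Levels are given in CPM, the reads of a gene divided by all reads counted in genes and scaled to the usual counts-per-million unit. Reads in genes numbered 65200231 in IP1 and 72732502 in IP2. Marker genes were used to see which cell types the RNA may come from. All 10 mural markers reached 10 CPM in both libraries, and summed to 6466 CPM in IP1 against 6366 CPM in IP2. Most of that sum was Rgs5, and the other 9 summed to 1626 and 2305 CPM. All 6 arterial smooth muscle markers also reached 10 CPM in both libraries. Of 10 endothelial markers 1 did, with sums of 39.4 and 52.3 CPM. The highest were Slc2a1 (998 reads in IP1 and 1754 in IP2), Flt1 (645 and 875) and Cdh5 (445 and 801). The lowest was Cldn5, with 5 reads in IP1 and 0 in IP2. Fibroblast markers (8 of 9 at 10 CPM, sums 1257 and 1668 CPM) also had high levels. So did those of astrocytes (5 of 6, sums 1363 and 2418 CPM in IP1 and IP2) and oligodendrocyte precursors (5 of 5, 2190 and 2660 CPM). The same held for oligodendrocytes (5 of 5, 2022 and 2157 CPM), excitatory neurons (5 of 5, 1391 and 1239 CPM) and inhibitory neurons (4 of 4, 852 and 793 CPM). Markers of microglia (0 of 6) and of ependymal and choroid plexus cells (1 of 7) were low. The reads of a gene may thus come from several cell types. Fewer cells of a type and less RNA per cell cannot be told apart in such samples.

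All 10 genes were detected in both libraries, from 405 reads (Foxc2 in IP1) to 17695 reads (Ebf1 in IP1). Of the 10, 9 reached 10 CPM in both libraries, a level that 47.0% of the 19580 genes with at least 1 read also reached. All 10 reached 1 CPM in both, against 68.7% of those genes. The median over the 10 was 103 CPM in IP1 and 88.7 in IP2, and over all genes with a read 9.52 and 9.20 CPM. CPM is not divided by transcript length, so these medians and counts are rough guides and the genes are not ranked on them. Because the 10 were chosen with earlier results known, their distance from all genes is a description and not a test.

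**Figure D1:**
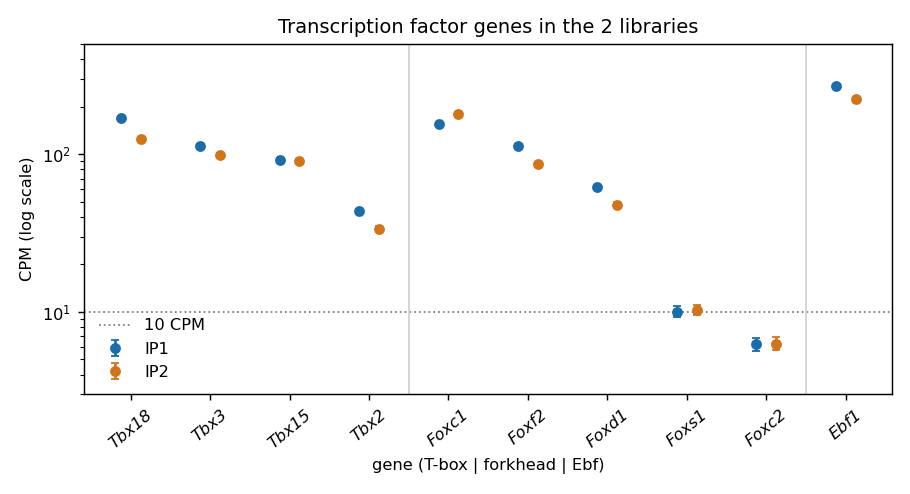
Level of each of the 10 genes in IP1 (blue) and IP2 (orange), in CPM on a log axis, with exact 95% Poisson intervals as error bars (often smaller than the points), ordered by family and mean level. Of the 10, 8 stand well above the dotted line at 10 CPM, Foxs1 lies on it (10.02 and 10.28 CPM) and Foxc2 below it (6.21 and 6.28 CPM).

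Factors such as these act at enhancers and at the stretch around the start of transcription. RefSeq (GRCm38.p6) gave 300-base windows, from 250 bases before to 50 after the start, for 5 of the 10 genes. Shown 5′ to 3′ are those of Tbx18, the gene that differed most between the libraries, of Foxf2 and Foxc1, neighbours that differed in opposite directions, and of the 2 starts of Ebf1. Capitals mark the forkhead core GTAAAC or the T-box core GGTGTG, on either strand (GTTTAC and CACACC in reverse).
Tbx18, chr9:87731211-87731510, minus strand: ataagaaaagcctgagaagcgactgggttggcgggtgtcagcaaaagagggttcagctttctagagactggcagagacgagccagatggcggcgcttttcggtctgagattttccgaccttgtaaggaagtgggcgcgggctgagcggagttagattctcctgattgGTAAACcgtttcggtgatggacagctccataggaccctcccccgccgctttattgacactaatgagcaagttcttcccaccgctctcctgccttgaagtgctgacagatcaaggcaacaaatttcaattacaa
Foxf2, chr13:31625566-31625865, plus strand: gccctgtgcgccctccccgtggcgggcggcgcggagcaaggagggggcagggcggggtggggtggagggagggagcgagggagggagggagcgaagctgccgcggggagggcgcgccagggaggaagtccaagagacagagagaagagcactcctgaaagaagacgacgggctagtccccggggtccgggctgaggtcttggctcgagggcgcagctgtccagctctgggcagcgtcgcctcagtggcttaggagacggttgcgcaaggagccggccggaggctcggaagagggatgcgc
Foxc1, chr13:31806396-31806695, plus strand: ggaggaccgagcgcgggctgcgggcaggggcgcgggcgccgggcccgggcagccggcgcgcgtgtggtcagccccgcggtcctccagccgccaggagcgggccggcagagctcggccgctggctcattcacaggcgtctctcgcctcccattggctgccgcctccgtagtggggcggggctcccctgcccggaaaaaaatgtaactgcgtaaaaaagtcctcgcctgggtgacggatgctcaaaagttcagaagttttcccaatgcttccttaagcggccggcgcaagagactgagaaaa
Ebf1, chr11:44617850-44618149, plus strand: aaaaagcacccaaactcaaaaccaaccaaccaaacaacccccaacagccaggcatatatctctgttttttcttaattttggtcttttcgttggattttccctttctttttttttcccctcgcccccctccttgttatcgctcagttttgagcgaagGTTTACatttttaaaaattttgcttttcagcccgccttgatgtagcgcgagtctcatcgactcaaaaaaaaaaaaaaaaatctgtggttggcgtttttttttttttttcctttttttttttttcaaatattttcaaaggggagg
Ebf1, chr11:44619978-44620277, plus strand: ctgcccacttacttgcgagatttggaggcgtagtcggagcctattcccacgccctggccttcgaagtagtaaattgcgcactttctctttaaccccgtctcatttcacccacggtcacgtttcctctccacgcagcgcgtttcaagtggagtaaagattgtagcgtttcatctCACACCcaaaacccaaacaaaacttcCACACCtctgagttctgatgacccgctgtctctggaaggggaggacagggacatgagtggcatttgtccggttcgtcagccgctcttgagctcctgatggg

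The letters searched were the 2 cores and the Ebf palindrome TCCCNNGGGA, each on both strands, and no matches overlapped. They were chosen after the windows had been looked at. The forkhead core was in the Tbx18 window and in the upstream Ebf1 window, and in 7.89% of all 32851 windows. The T-box core was found at 2 places in the downstream Ebf1 window, which 2.65% of all windows also showed, and once in that of Foxd1, as in 19.0% of windows with at least 1. No member window held the palindrome, which 0.904% of all windows did. The member windows held from 9 CG steps (upstream Ebf1) to 32 (Foxc1), against a median of 7 over all windows. G and C made up from 36.7% (upstream Ebf1) to 71.3% (Foxf2) of their bases, with Tbx18 at 51.7%, against a median of 52.7%. A match describes letters and not a bound site, and no binding was measured.

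The T-box genes make repressors and activators that pattern mesenchyme. Tbx18 (chromosome 9, 87702800 to 87731260, mm10 coordinates of the RefSeq annotation), which acts as a repressor in mural and other mesenchymal progenitors, had 11022 reads in IP1 (169 CPM, exact 95% Poisson interval 166 to 172) and 9072 reads in IP2 (125 CPM, 122 to 127), a mean of 147 ± 31.3 CPM (SD, n = 2). The intervals did not overlap, and Tbx18 had the largest relative spread between the libraries of the 10 genes. Tbx15 (chromosome 3, 99240348 to 99354260), its close relative, known from skeletal and fat development, was nearly equal in IP1 (92.2 CPM) and IP2 (91.0 CPM), with a mean of 91.6 ± 0.84 CPM (SD, n = 2). The spans of Tbx15 and of 2 annotated noncoding genes, Gm46817 and Gm52611, share 926 and 2759 bases, and reads from them could not be told apart without a known strand setting. Neither noncoding gene had a row of its own among the genes counted.

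Tbx3 and Tbx2 are a second pair of close relatives and both act mainly as repressors. Tbx3 was at 113 CPM in IP1 against 99.3 CPM in IP2 (106 ± 9.86 CPM, SD, n = 2). Its span shares 975 bases with the noncoding gene Tbx3os1, which had no row of its own among the genes counted. Tbx2 was at 43.4 CPM in IP1 against 33.5 CPM in IP2 (38.4 ± 7.02 CPM, SD, n = 2). Both members of each pair were therefore counted in both libraries.

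The rest of the T-box family was mostly near or at 0 reads. Of 13 T-box genes outside the 4, 2 reached 10 CPM in both libraries and 10 were under 1 CPM in both. Of all 32531 genes counted, 9207 reached 10 CPM and 13446 reached 1 CPM in both libraries, and 19580 had a read. The 2 T-box genes at 10 CPM were Mga (129 and 156 CPM in IP1 and IP2), a broadly expressed partner of Max, and Tbr1 (62.1 and 55.9 CPM), a factor of excitatory cortical neurons. Tbx6 followed at 2.50 and 2.03 CPM, and Tbx20 had 30 and 29 reads. Tbx4, Tbx5, Tbx10, Tbx19, Tbx21, Tbx22 and T had no read in either library. A count of 0 allows up to 3 reads, or 0.046 CPM (IP1) and 0.0412 CPM (IP2). For Tbx5 and T, whose spans overlap another annotated gene, the limit is not claimed, because reads that fit several counted genes went to none. Whether those overlapping genes were among the genes counted was not checked. Tbx10, Tbx19, Tbx21, Tbx22 and T were named after their values were seen.

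Of the forkhead members, 3 were counted at high levels. Foxc1, a regulator of meningeal, vascular and mesenchymal development, had 155 CPM in IP1 against 180 CPM in IP2 (167 ± 18.0 CPM, SD, n = 2). Foxf2, whose loss in mice is known to impair brain pericytes and the barrier, had 113 CPM in IP1 against 86.5 CPM in IP2 (99.8 ± 18.8 CPM, SD, n = 2). Foxd1 (chromosome 13, 98354245 to 98356705), a factor of stromal and pericyte progenitors best studied in kidney, had 61.8 CPM in IP1 against 47.9 CPM in IP2 (54.8 ± 9.87 CPM, SD, n = 2). Foxc1 was thus higher in IP2, and Foxf2 and Foxd1 in IP1.

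Foxs1 and Foxc2 had the fewest reads of the members. Foxs1 (chromosome 2, 152931898 to 152933208), a forkhead gene reported in pericytes and peripheral sensory neurons, had 653 reads in IP1 (10.02 CPM, exact 95% Poisson interval 9.26 to 10.8) and 748 in IP2 (10.28 CPM, 9.56 to 11.0). Its intervals span 10 CPM, and with TMM or DESeq2 scaling it fell below, leaving 8 of the 10 genes at that level. Foxc2, the closest relative of Foxc1 and a regulator of lymphatic valves and mesenchyme, had 405 and 457 reads (6.21 and 6.28 CPM in IP1 and IP2). For both genes the intervals of the 2 libraries overlapped.

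For Foxc1, Foxd1, Foxs1 and Foxc2, which have no introns, the annotated span is the transcript length and levels could be compared between genes. Foxc1 (chromosome 13, 31806646 to 31810635, 3990 bases) stood at 38.8 CPM per kilobase in IP1 and 45.2 in IP2 (42.0 ± 4.51, SD, n = 2). Foxd1 (2461 bases) stood at 25.1 and 19.4 CPM per kilobase, Foxs1 (1311 bases) at 7.64 and 7.84, and Foxc2 (2725 bases) at 2.28 and 2.31. The order Foxc1, Foxd1, Foxs1, Foxc2 was the same in both libraries, and no neighbours in it overlapped. Foxc1 exceeded Foxc2 by 17.0-fold in IP1 and 19.6-fold in IP2 per kilobase, so the pair was very unequal in both. Foxs1, the shortest of the 4, exceeded Foxc2 by 3.35-fold and 3.40-fold. Exon lengths of the other members were not used here, and no order is given for them.

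**Figure D2:**
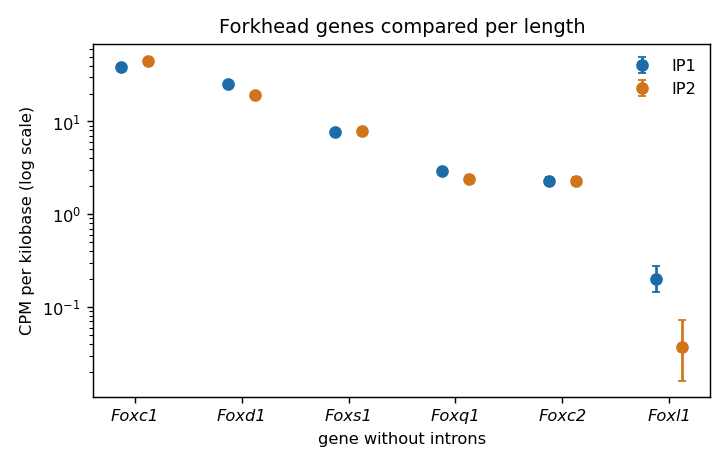
CPM per kilobase (log axis) in IP1 (blue) and IP2 (orange) for the 4 intronless members and their intronless neighbours Foxq1 and Foxl1, with exact 95% Poisson intervals. Foxc1 is highest in both libraries (38.8 and 45.2), and Foxq1 (2.91 and 2.41) lies close to Foxc2 (2.28 and 2.31).

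Outside the 5 members, 14 of 39 forkhead genes reached 10 CPM in both libraries, as did 9207 of all 32531 genes counted. Of the 39, 20 were under 1 CPM in both libraries and 12 had no read. Among the 14 at 10 CPM, Foxk1 (248 and 257 CPM in IP1 and IP2) and Foxj2 (202 and 193 CPM) are broadly expressed. So is Foxj3 (145 and 161 CPM), and Foxp1 (233 and 203 CPM) is used by cortical neurons among other cells. Across the 3 families, the 55 genes that are not members had 17 at 10 CPM in both libraries and 19 without a read. Their median, with those 19 included, was 0.37 CPM in IP1 against 0.082 CPM in IP2. The median over all genes given earlier leaves out genes without a read, so it cannot be compared directly with this one.

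**Figure D3:**
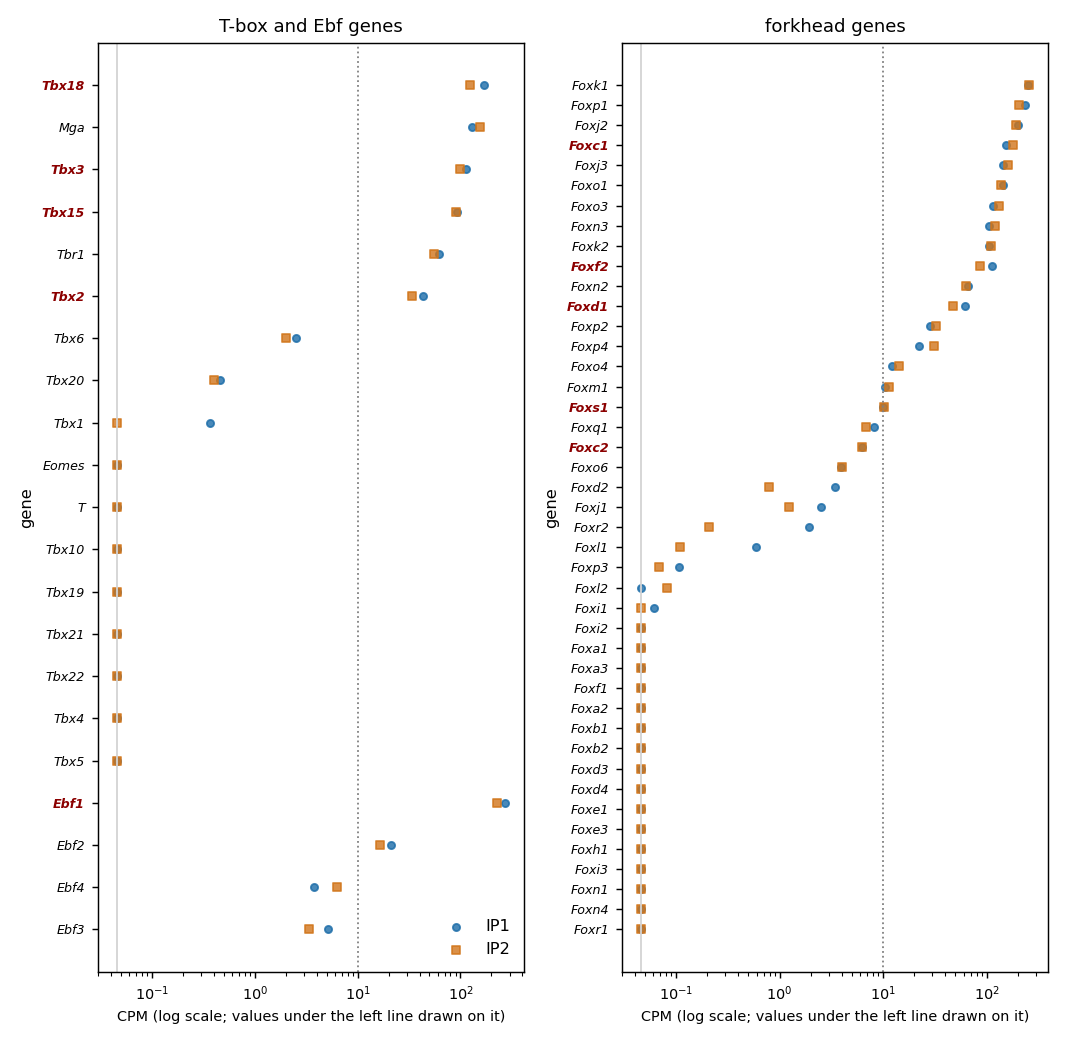
Level in IP1 (circles) and IP2 (squares) of the T-box, Ebf and forkhead genes, 1 of which is not drawn, in CPM on a log axis; the 10 members are in bold red, the dotted line is 10 CPM, and values under the left line (0.046 CPM) are drawn on it. In the T-box family no gene lies between Tbx2 (43.4 and 33.5 CPM) and Tbx6 (2.50 and 2.03 CPM).

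Several members sit beside a relative in the genome, and their neighbours were at very different levels. On chromosome 13 Foxf2 (31625816 to 31631406) lies 181 kb from Foxc1 (lowest coordinates), with both at high levels, while Foxq1 (31558170 to 31560976), on the other side of Foxf2, had 8.16 CPM in IP1 against 6.78 CPM in IP2. Per kilobase, Foxc1 exceeded Foxq1 by 13.3-fold in IP1 and 18.7-fold in IP2. On chromosome 8 Foxc2 (121116171 to 121118895) lies between Foxf1, with 0 reads in IP1 and 1 in IP2, and Foxl1, with 39 and 8 reads. Per kilobase Foxc2 exceeded Foxl1 by 11.3-fold and 62.1-fold, a ratio that rests on few Foxl1 reads. On chromosome 11 Tbx2 (85832615 to 85841948) had 2828 and 2433 reads and Tbx4, 53.8 kb away, had none. On chromosome 5 Tbx3 (119670534 to 119684724) had 7381 and 7220 reads and Tbx5, 126 kb away, had none. Of each T-box pair of neighbours, 1 gene was counted and the other had no read in either library.

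**Figure D4:**
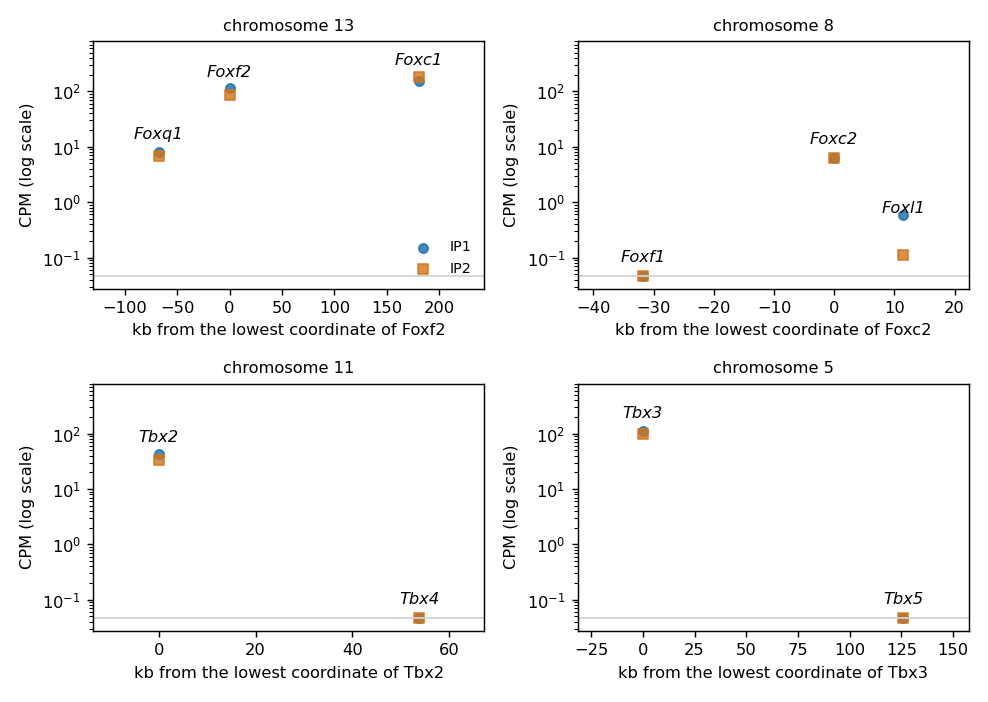
Level in IP1 (blue circles) and IP2 (orange squares), in CPM on a log axis, of members and their neighbouring relatives against the distance in kb between lowest coordinates; values under the grey line (0.046 CPM) are drawn on it. Foxf2 and Foxc1 are both high, whereas Tbx4, Tbx5 and Foxf1 lie on the line.

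Ebf1, on chromosome 11 (44618100 to 45008096), had 17695 reads in IP1 (271 CPM, exact 95% Poisson interval 267 to 275) and 16360 in IP2 (225 CPM, 222 to 228), a mean of 248 ± 32.9 CPM (SD, n = 2). It was lower in IP2, with intervals that did not overlap. Its relatives Ebf2 (21.2 and 16.6 CPM), Ebf3 (5.21 and 3.38 CPM) and Ebf4 (3.77 and 6.31 CPM) were counted in both libraries. Zfp423 and Zfp521, zinc finger proteins known to bind Ebf factors, were at 72.5 and 93.1 CPM and at 63.3 and 62.7 CPM.

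Other regulators gave the setting of these genes. Tbx18, Tbx15 and several forkhead proteins repress through Groucho corepressors. Of 6 Groucho family genes, not all of which need act in this way, 4 reached 10 CPM in both libraries. Among them were Tle4 (90.3 and 91.4 CPM), Tle3 (77.1 and 94.2 CPM) and Tle1 (78.1 and 86.0 CPM). Among 22 further mural and smooth muscle regulators 15 reached 10 CPM, among them Epas1 (1150 and 1199 CPM) and Mef2c (1058 and 934 CPM). Of 10 endothelial regulators 2 did, Ets1 (147 and 113 CPM) and Lef1 (24.4 and 20.2 CPM), and Fli1 was at 14.2 and 9.97 CPM. Of 14 meningeal and mesenchymal regulators 5 did, among them Prrx1 (139 and 130 CPM), Osr1 (32.5 and 36.5 CPM) and Alx4 (28.1 and 20.1 CPM), and Tcf21 had no read.

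The libraries differed by less than 1.5-fold in all 10 genes. Reads of each gene in IP1 and IP2 were compared by a two-sided exact binomial test given TMM-scaled library sizes, with Benjamini-Hochberg adjustment over 17306 genes. This test holds counting error only and compares 2 libraries of 1 group, not conditions. The call needed both an adjusted p below 0.05 and a difference of 2-fold or more. None of the 10 genes was called, against 10.3% of all genes tested called higher in IP1 and 7.22% higher in IP2. Most of those called have low levels. Among the 9656 genes averaging 10 CPM or more, as 9 of the 10 members do, 0.435% were called higher in IP1 and 1.23% higher in IP2, so that a count of 0 members is close to the share at this level. The members' ratios ran from 1.02-fold to 1.31-fold in size, and 88.7% of those 9656 genes lay within 1.5-fold.

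On the adjusted p alone, 6 of the 10 genes were lower in IP2, 1 was higher and 3 did not pass. By the same p, 38.5% of all genes tested passed as higher in IP1 and 37.5% as higher in IP2. As log2 of IP2 over IP1, the median ratio of the members was -0.18 and that of all genes tested -0.01. Tbx18 had a log2 ratio of -0.39 (95% interval -0.43 to -0.35, adjusted p = 2.40e-79), Foxf2 of -0.34 (adjusted p = 3.12e-41), Tbx2 of -0.32 (adjusted p = 1.60e-15) and Foxd1 of -0.32 (adjusted p = 6.03e-21), all by the exact binomial test. Ebf1 (-0.22) and Tbx3 (-0.14) were lower in IP2 by less. Foxc1 alone passed as higher in IP2, with a log2 ratio of 0.27 (95% interval 0.23 to 0.31, exact binomial adjusted p = 1.46e-44).

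These sizes were common among other genes. A ratio as large as that of Tbx18 was found in 24.8% of genes averaging 10 CPM or more, and one as large as that of Foxc1 in 39.8%. Tbx15 (log2 ratio 0.03, adjusted p = 0.254), Foxs1 (0.09, adjusted p = 0.303) and Foxc2 (0.07, adjusted p = 0.562) did not pass the exact binomial test. With an edgeR exact test that assumes a coefficient of variation of 0.1 between libraries, the lowest adjusted p of the 10 was 0.154 and none passed. Foxc1 and its neighbour Foxf2, whose start windows are printed above, went opposite ways, with log2 ratios 0.61 apart, a difference with no replicate check.

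Marker levels moved between the libraries as well. On the adjusted p, 7 of the 10 mural markers were higher in IP2 and 3 in IP1, with a median log2 ratio of 0.62. Their summed level was nearly equal in the libraries, but Rgs5 (4841 CPM in IP1 and 4061 CPM in IP2) made up most of it, and without it the other 9 summed to 1626 CPM in IP1 and 2305 CPM in IP2, 1.42-fold higher in IP2. All 6 astrocyte markers were higher in IP2, with a median log2 ratio of 0.87 and sums of 1363 CPM in IP1 against 2418 CPM in IP2. Of the 5 oligodendrocyte precursor markers 3 were higher in IP2, among them Pdgfra (log2 ratio 1.01) and Gpr17 (1.27), and 2 were lower. Of 9 fibroblast markers 8 were higher in IP2 and 1 in IP1. Of 21 mural and smooth muscle regulators tested, 12 were higher in IP1 and 4 in IP2, with a median of -0.10. Over all genes tested the same p gave 38.5% higher in IP1 and 37.5% higher in IP2. Lists that moved less included the arterial smooth muscle markers (median log2 ratio 0.10). Those of excitatory (-0.07) and inhibitory neurons (-0.08) also moved little. The part of cell makeup in the members' ratios was not tested.

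**Figure D5:**
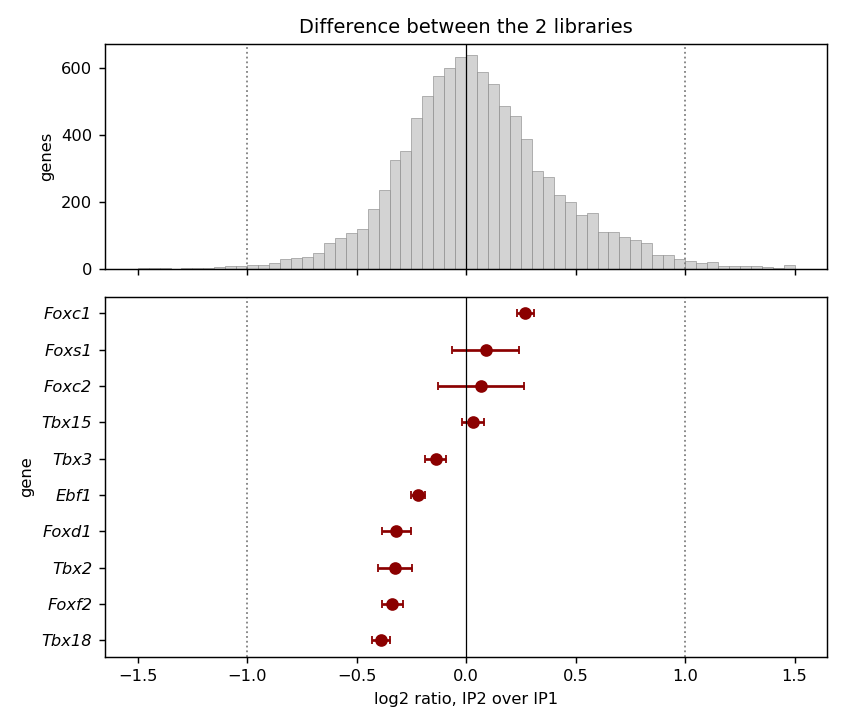
Top, number of genes averaging 10 CPM or more by log2 ratio of IP2 over IP1 (values past 1.5 in size drawn at the edge); bottom, the 10 members with exact 95% binomial intervals for counting error. The members lie between -0.39 (Tbx18) and 0.27 (Foxc1), all inside the dotted lines that mark 2-fold.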

How the data were processed

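The 2 libraries of immunopurified ribosome-bound RNA formed 1 group. Per the submitters' processing notes, the authors aligned reads with STAR 2.0.0e to mm10 and counted them with HTSeq; neither annotation nor strand setting was found in these notes (not given in the sources used here). The deposited files hold raw counts per gene symbol. Summary lines (reads outside genes 9.1% in IP1 and 9.2% in IP2, in several genes 1.64% and 1.6%, aligned to several places 31.2% and 31.5%) and a row named unknown (1 and 0 reads) were left out.

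Counts were divided by the total of all gene counts to give CPM. Intervals are exact (Poisson or binomial, 95%) and cover counting error only, not spread between libraries. PCR copies are not marked, so the intervals may be too narrow even for counting error. Library ratios used TMM sizes (edgeR 4.0.16), a prior of 0.5 counts and genes with at least 10 counts, a filter that all 10 members passed. Alternatives used DESeq2 1.42.0, other thresholds, priors and filters, and an edgeR exact test. Computation ran in R 4.3.3 and in Python 3.11.15 with scipy 1.17.1, pandas 2.3.3 and numpy 2.4.6.

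The members and the gene lists (11 of cell type markers, 5 of regulators) were chosen with earlier results of these data known. Named were all members, the 4 highest other genes of each family (all for Ebf), genome neighbours, and the 3 highest and up to 3 unread genes of each regulator list; a few that it selects are left out here. Over 2 libraries no likeness of pattern between genes can be measured. Gene spans came from the RefSeq table of GRCm38.p6.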

Additional observations from a re-analysis of the deposited data

How the results depend on the processing

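The median level of the 10 genes (95.7 CPM) kept within its spread under TMM, DESeq2 and a total without Rn45s, and ran from 88.7 to 103 CPM with either library left out. The count at 10 CPM was 8 to 10 under other scalings and thresholds, and 9 with either library left out. The family count (26 genes) ran from 22 to 33 with thresholds of 20 to 1 CPM. Without dividing by length the Foxc1 to Foxc2 ratio was 26.8 in place of 18.3, since Foxc1 is longer. Counts past 2-fold stayed at 0 under every alternative run. The 6 genes lower and 1 higher in IP2 on the adjusted p became 0 and 0 with the edgeR exact test at an assumed coefficient of variation of 0.1, and 0 and 0 at 0.2, which allow for spread beyond counting error. The log2 ratio of Tbx15 turned to -0.019 when scaled by total counts. All other ratios of the members kept their direction with total counts or DESeq2 size factors. The larger prior, the other filters and the edgeR exact test could not turn a direction, since they only shrink a ratio or leave it unchanged. No paired analysis was possible because the series has 1 group. Coding or longest transcript lengths were not used, since the reference table gives gene spans only. Of the members, Foxc2 and Foxs1 have the fewest reads.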
